A study of Homo sapiens with 3 samples.

Results

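Metallothioneins are small, cysteine-rich proteins of the cytoplasm and nucleus that bind zinc, copper and cadmium through the sulphur of their cysteines. Their genes are switched on by the zinc-sensing transcription factor MTF1, and several also respond to glucocorticoids and to oxidative stress. In colon epithelium they take part in the handling of zinc, and in cancer cells they are known as thiol-rich proteins that can bind platinum drugs. Decitabine blocks DNA methyltransferases, and carboplatin crosslinks DNA. The 8 genes described here, MT1A, MT1E, MT1F, MT1G, MT1H, MT1M, MT1X and MT2A, are the metallothionein genes listed by name as the group of interest, and they were found by the gene name of each probe in the scanner files. They are 8 of 18345 genes that had a value on all 3 arrays, and they are measured by 15 probes.

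All groups are cultures of YB5, which is 1 clone grown out of SW48, a line from a tumour of the colon. Its genome holds 1 GFP reporter that methylation of the viral promoter keeps silent. Its RNA was compared on 3 dual-colour Agilent whole-genome arrays of 1 slide, 1 array per treatment, with decitabine at 25 nM, carboplatin at 20 μM by the labels, or both drugs. The drugs were given in 4 doses on days 1 to 4, and cells were harvested on day 6. The 3 arrays are called the decitabine-labelled, carboplatin-labelled and combination arrays after their labels. The text of the study also gives a carboplatin dose that differs from the labels. On each array RNA of treated cells carried Cy3 and RNA of control cells given the solvent DMSO carried Cy5. The sample titles and the study call the control cells untreated. The dyes were never exchanged, so that the preference of a probe for a dye is part of each change. Changes are given on the log2 scale, treated over control, after loess normalization, and a gene is called changed here at 1.5-fold, which is 0.58 on the log2 scale. No test was made with 1 array per treatment, and the precision of every value is limited by this number. The sources used here do not say if the control RNA of all arrays came from 1 extract. In bulk RNA, fewer expressing cells and less RNA per cell cannot be told apart.

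The probes were 60 bases long, and metallothionein genes are close copies of each other, so the probe sequences bear on which transcripts a value covers. The probes named for MT1A, MT1H and MT1X below lie in coding sequence. Read in a frame without a stop codon, 6 to 8 of their codons encode cysteine. Capitals mark the longest run shared with a probe named for another metallothionein gene. The files list transcripts of more than 1 gene as targets of all 4.
MT1A probe A_23_P54840: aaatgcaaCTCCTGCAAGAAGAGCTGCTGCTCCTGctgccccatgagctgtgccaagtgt
MT1H probe A_23_P163782: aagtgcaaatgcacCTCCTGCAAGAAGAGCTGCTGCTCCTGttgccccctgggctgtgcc
MT1H probe A_23_P414343: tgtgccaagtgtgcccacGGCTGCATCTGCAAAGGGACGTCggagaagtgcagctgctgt
MT1X probe A_23_P303242: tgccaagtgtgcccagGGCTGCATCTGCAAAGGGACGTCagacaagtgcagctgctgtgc

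The first pair shares 27 bases and the second pair 23 bases in 1 run. Stretches of 30 bases follow for the probes on which the values of MT1F, MT2A and MT1E rest. The longest shared run was 19 bases for MT1F (with the MT1L probe), 7 bases for the brightest MT2A probe and 10 bases for the MT1E probe A_23_P420942. The other MT1E probe shared 23 bases with a probe for MT1X, and the MT2A probe A_24_P361896 shared 17 bases with the MT1F probe.
MT1F probe A_23_P15174: acctttCTCCCAGATGTAAACAGAGagaca
MT2A probe A_23_P106844: ttgctatattccTTTTTCTatgaaataatg
MT1E probe A_23_P420942: tgggacacaaACCCCAACTGtaccccctat
MT1E probe A_23_P206724: ggagAAGTGCAGCTGCTGTGCCTGATGtgg

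Before the results, 2 properties of the arrays have to be given. Spots at the left edge of the decitabine-labelled array, in columns 1 to 9 with 10.1 % of spots, had a median change of 0.75, and spots elsewhere on it -0.02. Of the 15 metallothionein probes, 1 lies there, the MT1E probe A_23_P206724 in column 7, and it is given apart. The arrays carry 264 probes at 10 spots each, which outside these columns had a pooled SD of the log2 change of 0.0776 on the decitabine-labelled array, 0.0747 on the carboplatin-labelled array and 0.0758 on the combination array. This SD is a technical error within an array and not the spread between cultures.

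The labels of the single-drug arrays were set against known target genes. For this and every list given later, the share of all genes outside the edge columns that passed was 4.89 % up and 5.12 % down on the decitabine-labelled array, 2.76 % up and 1.4 % down on the carboplatin-labelled array, and 7.31 % up and 5.93 % down on the combination array. In lists this short a count of 0 or 1 lies near these shares. Of 14 p53 target genes outside the edge columns, which respond to DNA damage, the numbers up were 14, 7 and 14 on the decitabine-labelled, carboplatin-labelled and combination arrays. GDF15, a secreted p53 target, changed by 4.96, 1.65 and 5.13 in this order, and MDM2, PLK3 and TP53INP1 were likewise lowest on the carboplatin-labelled array, at 0.63, 1.12 and 0.82, against 3.34, 2.98 and 2.38 on the decitabine-labelled array. The cancer-testis gene PRAME, of the kind silenced by methylation in somatic cells, had a log2 change of -0.06 on the decitabine-labelled array, where it was not well above background, and 3.09 and 2.95 on the other two. Of 16 cancer-testis genes 0, 3 and 2 were up, PRAME and PAGE5 on both arrays that had any and SYCP3 on the carboplatin-labelled array. In the study's supplement PLK3, TNFRSF10B, GADD45A and BBC3 are listed as raised by carboplatin and CENPF as lowered. On the carboplatin-labelled and decitabine-labelled arrays TNFRSF10B gave 0.04 and 0.94, GADD45A 0.23 and 1.93, and CENPF -0.34 and -1.71. BBC3, by a probe in the edge columns, went the other way at 0.24 and -0.09. Whether the labels of the single-drug arrays are exchanged was not tested, and no array was reassigned, so arrays are named by their labels throughout. Of 11 colon epithelial markers 9, 9 and 7 were well above background in both channels of the 3 arrays in this order, among them KRT18, KRT19 and CDX2. In neither channel above it were 1, 2 and 2, GPA33 on every array and KRT20 on the carboplatin-labelled and combination arrays. LGALS4 was above it in the treated channel alone on the combination array. Of the 8 outside the edge columns 1 was up and 2 down, 2 up and 0 down, and 2 up and 1 down on the 3 arrays, with medians of -0.01, 0.30 and 0.12. The keratin genes KRT18 and KRT19 gave 0.83, 0.50 and 1.14, and -0.01, 0.71 and 0.85. CDH17, another of them, was above it in the control channel alone on the decitabine-labelled and combination arrays, with changes of -0.68, -0.48 and -0.87, and VIL1, which encodes the microvillus protein villin, gave -0.88, 1.87 and 0.19. Of 7 markers of other cell types 3, 4 and 4 were above it in both channels and 3 in neither, namely PTPRC, PECAM1 and NCAM1, markers of leukocytes, endothelium and nerve cells. CD68, a lysosomal protein of macrophages, was above it in both channels of all arrays and gave 0.99, 0.40 and 1.53, and COL1A1, VIM and ALB were above it in at least 1 channel of each array. COL1A1 gave -0.40, 0.29 and -0.29, and VIM gave -0.36, -0.34 and -0.22. Of the 7 genes 1, 0 and 1 were up and 0 down on each array, with medians of -0.04, 0.07 and -0.01, counts near the shares of all genes. The part of these markers in the metallothionein values was not tested.

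Each gene was represented by its brightest probe. Of the 8 genes 3 were down on the decitabine-labelled array, MT1F, MT2A and MT1G, and 1 was up there, MT1E by its edge probe, where 4.66 % of all genes were down and 10.6 % up. Neither a rise (0 genes) nor a fall (0 genes) reached 1.5-fold on the carboplatin-labelled array, where 2.77 % of all genes were up and 1.49 % down. Falls past 1.5-fold on the combination array numbered 2, MT1F and MT2A, and rises 0, where 5.93 % of all genes were down and 7.48 % up. The median change of the 8 genes was -0.46, -0.17 and -0.01 on these arrays, against 0.01, -0.01 and 0.00 over all genes. Without MT1E the counts among 7 genes were the same for falls, with 0 up on each array and medians of -0.50, -0.16 and -0.05. With MT1E taken from its probe outside the edge columns, 4 of 8 genes were down on the decitabine-labelled array and 0 up, and on the combination array 2 were down and 1 up. Median centring of the arrays in place of loess gave other counts, with 6, 7 and 6 of 8 genes down on the 3 arrays and medians of -1.15, -0.82 and -0.67, so the number down depends on the scaling. That scaling also lowered genes at large, and 24.2 %, 19.2 % and 21.5 % of all genes were down with it. All 15 probes were well above background in both channels of all arrays, and none was saturated.

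**Figure D1:**
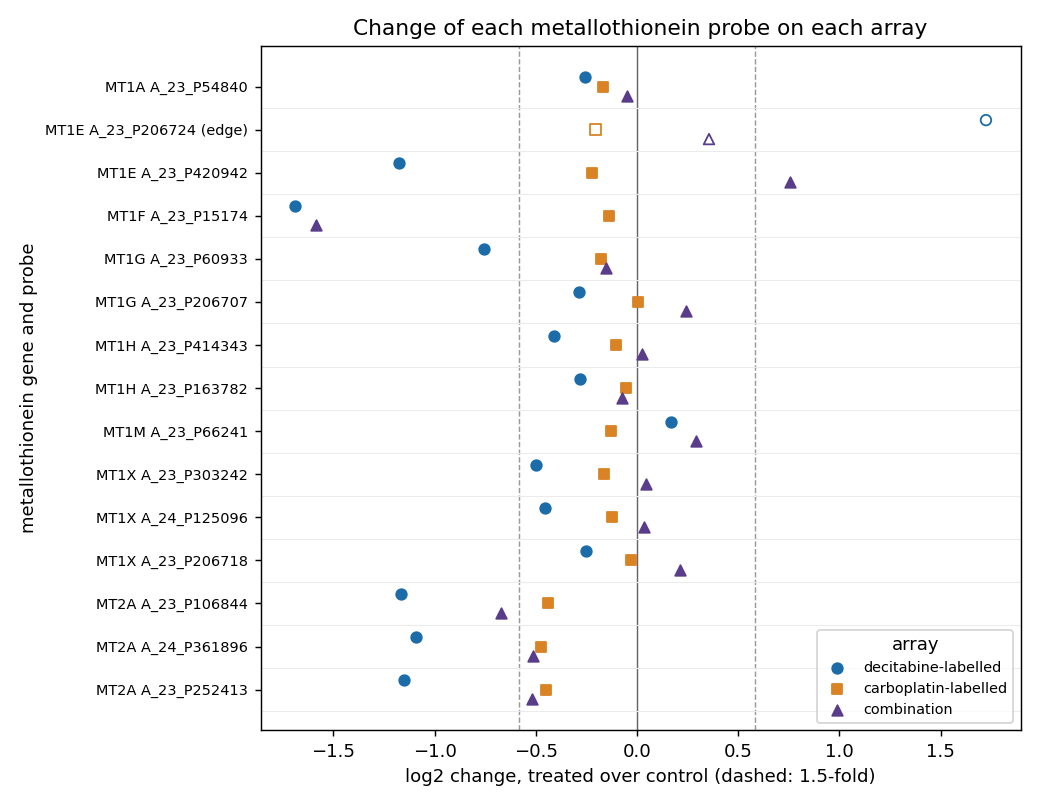
Log2 change (treated over control, x axis) of the 15 metallothionein probes (y axis) on each array, 1 symbol per array, with dashed lines at 1.5-fold and open symbols for the MT1E probe in the edge columns. On the decitabine-labelled array 13 of 14 probes outside the edge columns lie below 0, with MT1F lowest at -1.69, and on the combination array 7 lie below and 7 above 0.

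MT1F had the largest fall of the 8 genes. Its probe lies at chr16:56693077-56693136 of hg19, on the plus strand, in the transcript listed for MT1F alone. The control channel level (log2 intensity scaled between arrays) was 12.24, 12.10 and 12.23 on the decitabine-labelled, carboplatin-labelled and combination arrays, and the treated level was 10.55, 11.96 and 10.64. The control levels were thus within 0.14 of each other, while the treated level was low on the decitabine-labelled and combination arrays and near the control on the carboplatin-labelled array. The change was -1.69, -0.14 and -1.58 in the same order, so that MT1F was 3.22-fold lower on the decitabine-labelled array and 3.00-fold lower on the combination array. Of 16448 genes outside the edge columns, 26 (0.158 %) fell as far or further on the decitabine-labelled array and 36 (0.219 %) on the combination array. The values of these arrays differed by 0.10, beside an SD of repeated spots of 0.0776 on the one and 0.0758 on the other. Among 3129 other spots within 0.5 of its brightness on the decitabine-labelled array the median change was 0.03, with an SD of 0.64 over these spots. Spots of the edge columns are among them, so this SD also holds the shift of those columns.

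MT2A, a main isoform of many human tissues, was down on the decitabine-labelled and combination arrays and short of 1.5-fold on the carboplatin-labelled array. It is measured by 3 probes close together at chr16:56643281-56643396 of hg19, on the plus strand, and each lists MT2A alone. Its brightest probe, A_23_P106844, had control levels of 16.96, 16.81 and 16.94 and treated levels of 15.80, 16.37 and 16.27 in the order decitabine, carboplatin and both drugs. The treated level was lowest on the decitabine-labelled array and the control levels lay within 0.16 of each other. Treated RNA carried the same dye on every array, so a gap between the channels that all arrays share cannot be told apart from the dye preference of the probe. The change was -1.17, -0.44 and -0.67 by this probe. It was -1.09, -0.47 and -0.51 by A_24_P361896 and -1.15, -0.45 and -0.52 by A_23_P252413. The probes lay within 0.07, 0.03 and 0.16 of each other on the 3 arrays, and they overlap in sequence, so they are not independent. Of the 3 probes, 1 is past 1.5-fold on the combination array. Genes that fell at least as far as the brightest probe made up 0.705 %, 4.04 % and 4.38 % of those outside the edge columns.

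MT1E is measured by probes that disagree. The probe A_23_P420942, at chr16:56660614-56660673 of hg19, lies outside the edge columns and lists 1 GenBank transcript of this gene and no RefSeq one. Its control levels were 10.52, 10.5 and 10.46, within 0.06 of each other. Its treated levels were 9.35, 10.28 and 11.22, so that the decitabine-labelled array was low, the carboplatin-labelled array near the control and the combination array high. The change was -1.17, -0.22 and 0.76, which is 2.26-fold lower, 1.17-fold lower and 1.69-fold higher. The decitabine-labelled and combination arrays differed by 1.93, the widest gap between these arrays among the 15 probes. The rise on the combination array was 0.33 under median centring, short of 1.5-fold, and past it in the 7 other alternatives that give this probe a value. The fall was matched or exceeded by 0.693 % of genes, and the rise by 4.60 %.

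The other MT1E probe, A_23_P206724, is designed on the RefSeq transcript at chr16:56660853-56660912 and gave 1.72, -0.21 and 0.36. Its first value was 0.74 from the scanner's processed signals and 0.43 in the authors' deposited values. Its control level was 13.49 on the decitabine-labelled array, where it lies in the edge columns, and 15.14 and 15.08 on the others. Its treated level was 15.22, 14.93 and 15.44. The control channel is thus the one that stands apart on the decitabine-labelled array, and the treated level there lies between those of the other arrays. Outside the decitabine-labelled array the probes had values of the same sign, except that the edge probe was 0.27 on the carboplatin-labelled array in the authors' values and -0.27 on the combination array under median centring.

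**Figure D2:**
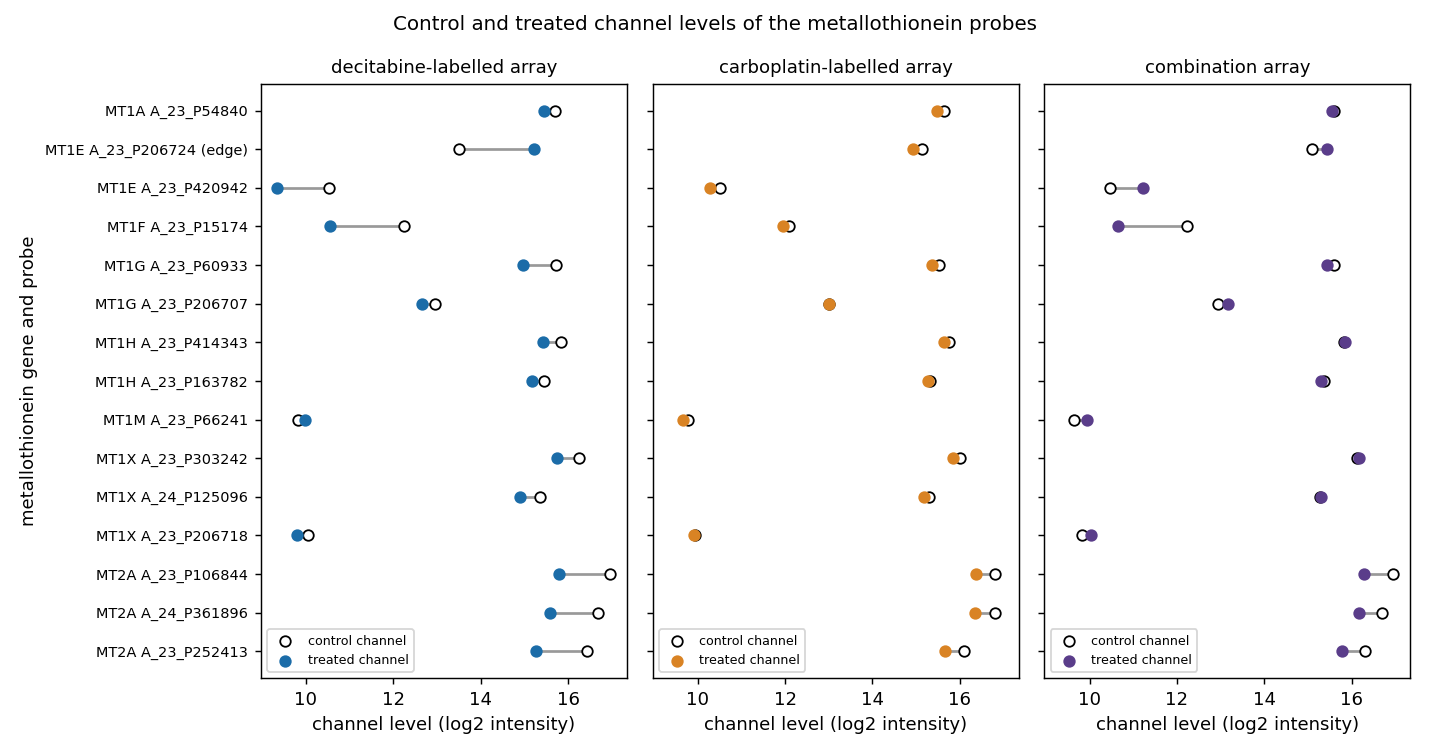
Control (open) and treated (filled) channel level in log2 intensity (x axis) of the 15 metallothionein probes (y axis), 1 panel per array. The control level of MT1F stays between 12.10 and 12.24 while its treated level is 10.55 on the decitabine-labelled array and 10.64 on the combination array, and the control level of the MT1E edge probe is 13.49 on the decitabine-labelled array against 15.14 and 15.08.

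MT1G, another metal-inducible isoform, is transcribed from the minus strand. Its brightest probe, A_23_P60933 at chr16:56700746-56700805, had control levels of 15.73, 15.53 and 15.59 and treated levels of 14.97, 15.35 and 15.44. The change was -0.75, -0.18 and -0.15, past 1.5-fold on the decitabine-labelled array alone. The probe A_23_P206707, which spans an intron from 56701288 to 56701935, changed by -0.29, 0.00 and 0.24. Both probes were lowest on the decitabine-labelled array and highest on the combination array. For A_23_P60933 the carboplatin-labelled and combination arrays differed by 0.02. With the scanner's processed signals their order turned, at -0.18 and -0.21. With the mean of both probes MT1G gave -0.52 on the decitabine-labelled array, short of 1.5-fold, and 0.05 on the combination array.

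MT1X, MT1H and MT1A did not reach 1.5-fold on any array after loess, although most of their values were below 0. On the decitabine-labelled array MT1X was at -0.60 and MT1H at -0.57 in the authors' deposited values, the former past 1.5-fold, and under median centring MT1X, MT1H and MT1A were at -1.20, -1.10 and -0.94. For MT1X, the coding probe A_23_P303242 had control levels of 16.25, 16.01 and 16.13 and treated levels of 15.75, 15.84 and 16.17. Its change was -0.50, -0.16 and 0.04. The probe A_24_P125096, which lists MT1X alone and overlaps the former, gave -0.45, -0.12 and 0.03, and the third, A_23_P206718, gave -0.25, -0.03 and 0.21. All 3 were lowest on the decitabine-labelled array and highest on the combination array.

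MT1H gave -0.41, -0.11 and 0.03 by A_23_P414343 and -0.28, -0.05 and -0.07 by A_23_P163782. The files place the former at chr16:56670790-56670849 of hg19, between the probes of the pseudogene MT1JP and of MT1A, and the latter from 56704456 to 56704841. Probes of 1 gene name thus stand apart in the cluster. All probe positions given here are of hg19, so they cannot be read against the promoter positions below, which are of GRCh38.p14. MT1A gave -0.26, -0.17 and -0.05 by its probe, which the files also list for MT1M. Because of the shared sequence printed above, a value of MT1A, MT1H or MT1X may include signal of other metallothionein transcripts, and the part of such cross-hybridisation was not tested. The 4 probes that list more than 1 gene ranged from -0.50 to -0.26 on the decitabine-labelled array, and the 10 other probes outside the edge columns from -1.69 to 0.17.

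MT1M was the gene with a positive value by its brightest probe outside the edge columns on the decitabine-labelled array. Its probe A_23_P66241, at chr16:56667810-56667869, shares at most 9 bases in a run with other metallothionein probes. Control levels were 9.81, 9.78 and 9.65 and treated levels 9.98, 9.65 and 9.94. The change was 0.17, -0.13 and 0.29, and no value reached 1.5-fold.

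For each gene the sum of the changes on the single-drug arrays was subtracted from the change on the combination array. This difference also holds any term common to all arrays, such as the preference of a probe for a dye, since such a term is taken away from 2 arrays and added by 1. A gene shifted below 0 by the same amount on every array thus comes out above the sum by that amount, and drug effects and such a term cannot be told apart here. Among the 7 genes represented outside the edge columns, 3 lay at least 1.5-fold above the sum, where 1.9 % of the 16448 genes outside them did, and 0 lay as far below, where 1.29 % did. By their brightest probes the 3 genes were MT2A, MT1G and MT1X, with differences of 0.94, 0.78 and 0.71. The MT1G probe A_23_P206707 and the MT1X probe A_23_P206718 gave 0.53 and 0.50, both short of 1.5-fold. The MT1X probe A_24_P125096 gave 0.61, and the other MT2A probes gave 1.05 and 1.08. MT1F was 0.24 above the sum, and the MT1E probe A_23_P420942 was 2.15 above it. Under median centring 7 of the 7 genes were at least 1.5-fold above the sum, with a median of 1.22 in place of 0.54, and 25.6 % of all genes were, with a median of 0.28 in place of 0.02. The arrays have separate control channels, whose range over the arrays was 0.16 for MT2A, 0.20 for MT1G and 0.24 for MT1X, against a median of 0.136 over 11499 genes. Set against the decitabine-labelled array alone, the combination array was higher for 7 of 7 genes, by 0.10 for MT1F to 0.60 for MT1G, where 53.2 % of the 16448 genes were higher.

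Promoter sequence was at hand for 3 of the 8 genes, MT2A, MT1H and MT1X. The 250 bases before the start of transcription are shown from RefSeq, build GRCh38.p14, plus strand, since values of these genes of 1 cluster differed in size: on the decitabine-labelled array all were below 0, MT2A at -1.17, MT1H at -0.41 and MT1X at -0.50. The MT1H value is of the probe A_23_P414343, which lists MT1H, MT1L and MT1X and is placed apart from the other MT1H probe, which gave -0.28. Capitals mark the core of the metal response element bound by MTF1, searched as TGCACNC and TGCGCNC on both strands. The motifs differ in their 4th base, and no matches overlapped.
MT2A, chr16:56608334-56608583: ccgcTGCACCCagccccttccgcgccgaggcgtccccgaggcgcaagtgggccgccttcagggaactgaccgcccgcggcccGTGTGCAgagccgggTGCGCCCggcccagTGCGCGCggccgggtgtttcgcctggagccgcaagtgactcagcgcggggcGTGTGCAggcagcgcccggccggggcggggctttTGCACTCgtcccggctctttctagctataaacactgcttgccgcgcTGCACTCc
MT1H, chr16:56669564-56669813: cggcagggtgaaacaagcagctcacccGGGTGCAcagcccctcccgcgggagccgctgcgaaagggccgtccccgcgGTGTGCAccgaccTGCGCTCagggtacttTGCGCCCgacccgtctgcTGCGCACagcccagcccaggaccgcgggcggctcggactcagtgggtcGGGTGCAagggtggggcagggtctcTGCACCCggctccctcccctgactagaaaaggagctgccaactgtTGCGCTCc
MT1X, chr16:56682220-56682469: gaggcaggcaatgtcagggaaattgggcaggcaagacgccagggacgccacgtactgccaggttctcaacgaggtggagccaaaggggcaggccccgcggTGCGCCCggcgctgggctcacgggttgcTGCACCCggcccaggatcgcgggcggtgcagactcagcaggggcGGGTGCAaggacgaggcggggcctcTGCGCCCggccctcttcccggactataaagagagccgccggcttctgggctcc

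These windows held 7, 8 and 4 matches for MT2A, MT1H and MT1X. At least 1 match was found in 24.8 % of 35116 promoter windows of the same length, at least 4 in 0.37 % and at least 7 in 0.0313 %. The windows held 32, 22 and 22 CpG dinucleotides, against a median of 11. At least as many were found in 9.52 %, 28 % and 28 % of promoter windows, so the counts of MT1H and MT1X are not rare. A match is a description of letters and not a measured site, and methylation was not measured by these arrays.

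Genes that sense or carry the same metals were described next, each list by its genes past 1.5-fold. Their counts are read beside the shares of all genes outside the edge columns, given above with the label checks. Of 19 genes of metal sensing and stress response, 3 were up and 1 down on the decitabine-labelled array, 1 and 1 on the carboplatin-labelled array, and 5 and 1 on the combination array. Their medians were 0.18, 0.04 and 0.10. HMOX1, the heme-degrading enzyme induced by oxidative and metal stress, changed by 1.39, 0.35 and 1.73. SRXN1, which repairs oxidized peroxiredoxins, changed by 0.88, 0.10 and 0.91, and the selenoprotein gene SELENOW by 0.56, 0.72 and 0.84. SLC7A11, the cystine importer, gave -0.66, -0.37 and -0.73. The others past 1.5-fold, named after their values were seen, were the heat shock genes HSPA6, at 0.69, 0.37 and 0.70, and HSPA1A, at 0.53, 0.53 and 0.62, and NFE2L2, which encodes the oxidative stress factor NRF2, at -0.42, -0.69 and -0.53. MTF1 itself gave 0.15, 0.09 and -0.03 and did not reach 1.5-fold. HMOX1 was high on the same arrays on which MT1F was low. The p53 targets GDF15 and MDM2 were also highest on these arrays, so this pattern is not particular to genes of metal handling.

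Of 9 zinc exporters of the SLC30A family outside the edge columns, 0 were up and 0 down on each array. SLC30A3, in the edge columns, gave 0.19, 0.86 and 0.89, past 1.5-fold on the carboplatin-labelled and combination arrays. It was above background in both channels on the carboplatin-labelled array alone. SLC30A1, the plasma membrane exporter that MTF1 also controls, gave 0.07, -0.54 and 0.32. Of 14 zinc importers of the SLC39A family, 1 was up and 0 down on the decitabine-labelled array, 1 and 0 on the carboplatin-labelled array, and 4 and 1 on the combination array, where SLC39A11 was the gene down, at -0.63. SLC39A7, which releases zinc from the endoplasmic reticulum, gave -0.11, 0.30 and 0.90. SLC39A3 and SLC39A1, importers of the plasma membrane, gave 0.32, 0.65 and 0.78, and 0.52, 0.37 and 0.76. SLC39A4, the intestinal importer, gave 0.60, 0.07 and 0.67.

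Of 17 genes of copper handling outside the edge columns, 1 was up and 1 down on the decitabine-labelled array, 0 and 0 on the carboplatin-labelled array, and 3 and 1 on the combination array. In the edge columns ATOX1 gave 2.43, 0.24 and 1.14, and SCO1 gave 2.13, 0.04 and 0.50. HEPH, a copper-dependent ferroxidase of the gut, gave -1.40, 0.19 and -1.13. SLC31A2, a copper transporter of endosomes, gave 0.68, 0.18 and 0.77, the metalloreductase STEAP2 gave 0.55, -0.41 and 0.70, and CCS, the copper chaperone of superoxide dismutase, gave 0.34, 0.40 and 0.64. Of 14 glucocorticoid response genes outside the edge columns, 1 was up and 0 down, 2 up and 1 down, and 0 up and 0 down on the 3 arrays in the same order. By their brightest probes NR3C1, which encodes the glucocorticoid receptor, and ANGPTL4 were well above background in neither channel of any array. FKBP5, a co-chaperone of the glucocorticoid receptor, gave 0.02, 0.90 and 0.37, and the phosphatase DUSP1 gave 0.83, -0.51 and 0.44. SGK1, a kinase, gave 0.33, -0.60 and 0.54, and CRISPLD2 gave -0.35, 0.59 and 0.22.

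**Figure D3:**
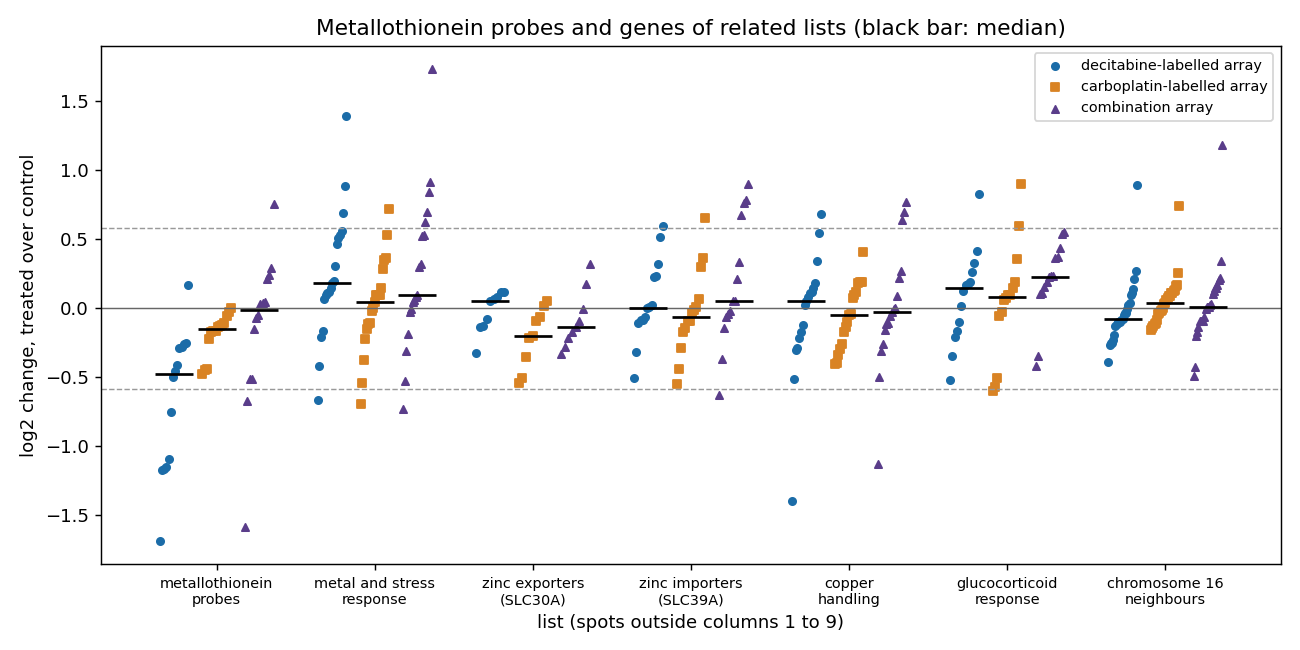
Log2 change (treated over control, y axis) of the 14 metallothionein probes outside the edge columns and of the genes of each related list outside them (x axis), 1 point per probe or gene, 1 colour and symbol per array, with black bars for medians and dashed lines at 1.5-fold. On the decitabine-labelled array the median of the metallothionein probes is -0.48, and that of the metal and stress list is 0.18.

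The metallothionein genes lie side by side on chromosome 16, and their probes were placed by the files from 56643281 to 56717969. Other genes within 1 Mb on either side were therefore listed, 30 in all and 25 outside the edge columns. Of the 25, 1 was up and 0 down on each array, and the medians were -0.08, 0.04 and 0.01. ADGRG1, an adhesion receptor gene, gave 0.90, 0.00 and 1.18, and the adaptor gene DOK4 gave 0.14, 0.74 and 0.34. NUP93, a nucleoporin gene next to the cluster, gave -0.23, 0.11 and -0.17. These counts lie near the shares of all genes given above, so little can be read from them about the region.

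**Figure D4:**
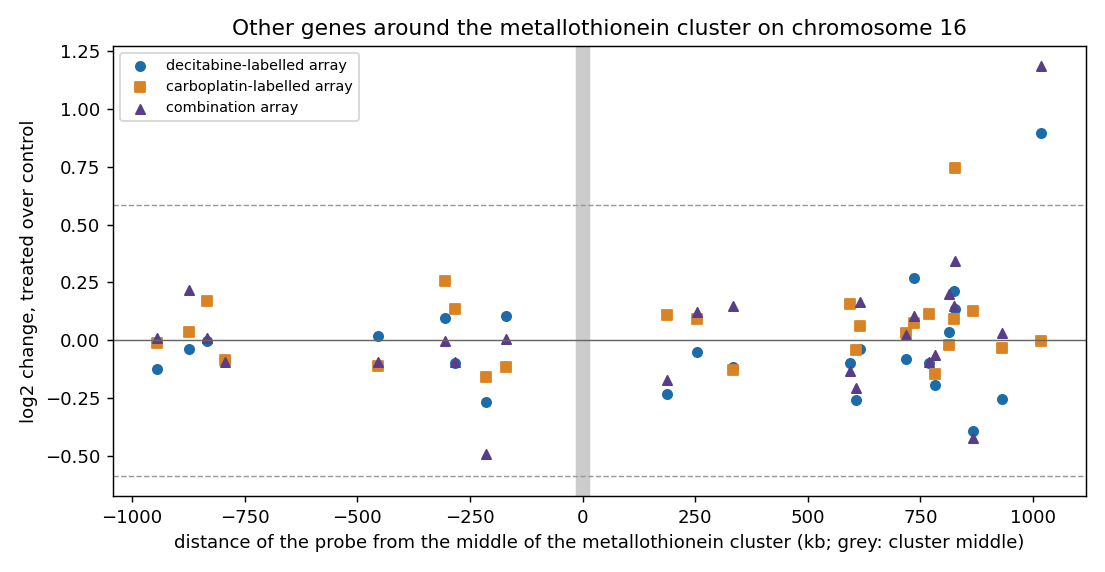
Log2 change (treated over control, y axis) of 25 other genes against the distance of their probe from the middle of the metallothionein cluster in kb (x axis), 1 colour and symbol per array, dashed lines at 1.5-fold. No gene lies below the lower line, and the points above the upper line belong to DOK4 at 825.5 kb and ADGRG1 at 1018 kb.

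The remaining metallothionein probes of the arrays were read for comparison. MT1B, whose probe shares 17 bases with an MT1E probe, gave -0.48, -0.05 and 0.07, and MT1L, a pseudogene of the cluster, gave -0.41, 0.01 and 0.08, both near the values of MT1X. The brain isoform MT3 has a probe in the edge columns, with 1.00, -0.26 and -0.10, and another that was not above background. MT4, an isoform of stratified epithelium, gave -0.48, 0.65 and -0.36, past 1.5-fold on the carboplatin-labelled array. It was well above background in both channels there, at low levels of 6.56 in the control and 7.20 in the treated channel. On the other arrays it was above background in the control channel alone. MT1JP, a pseudogene, was well above background only in the control channel of the decitabine-labelled array. MTL5, now named TESMIN, is a testis gene on chromosome 11 with cysteine-rich motifs and is not a metallothionein of the cluster. Its probes gave -0.96, -0.51 and -1.13, and -0.03, -0.01 and -0.23.

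Genes with the pattern most like that of the 8 genes were sought. The measure was the Euclidean distance of the 3 changes from the median of the members. The search covered 11490 genes outside the edge columns that were well above background in both channels on all arrays. The nearest were STRN4, BMP2K, ACAD11, LPAR5 and LAMB2, at distances of 0.0589 to 0.0941 on the log2 scale, and 198 genes lay within 0.25. STRN4 gave -0.43, -0.16 and 0.04. The median of the members on the decitabine-labelled array, -0.46, includes MT1E by its edge probe, and it is -0.63 with the other MT1E probe. With that median, an alternative chosen after seeing the data, the nearest genes were ATP8B2, LAMB2, CTNND1, MATCAP1 and FER1L4, at distances of 0.0857 to 0.148, and 23 genes lay within 0.25, so the genes found depend on the MT1E probe. The same search was made for single genes after their values had been seen. For MT1F it gave CDKN2C, HSD11B2, NDC80, KRT14 and CENPF, with CDKN2C, an inhibitor of cyclin-dependent kinases, at -1.69, -0.23 and -1.71 and NDC80, a kinetochore gene, at -1.56, -0.21 and -1.47, and 5 genes lay within 0.25. For MT2A it gave MTFR2, TAPBP, SRGAP1, SHTN1 and PLEKHA6, with MTFR2 at -1.12, -0.35 and -0.81. For the MT1E probe A_23_P420942 the nearest gene was TMED9 at 0.42, and 0 genes lay within 0.25. These distances rest on 3 values each and describe likeness only.

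**Figure D5:**
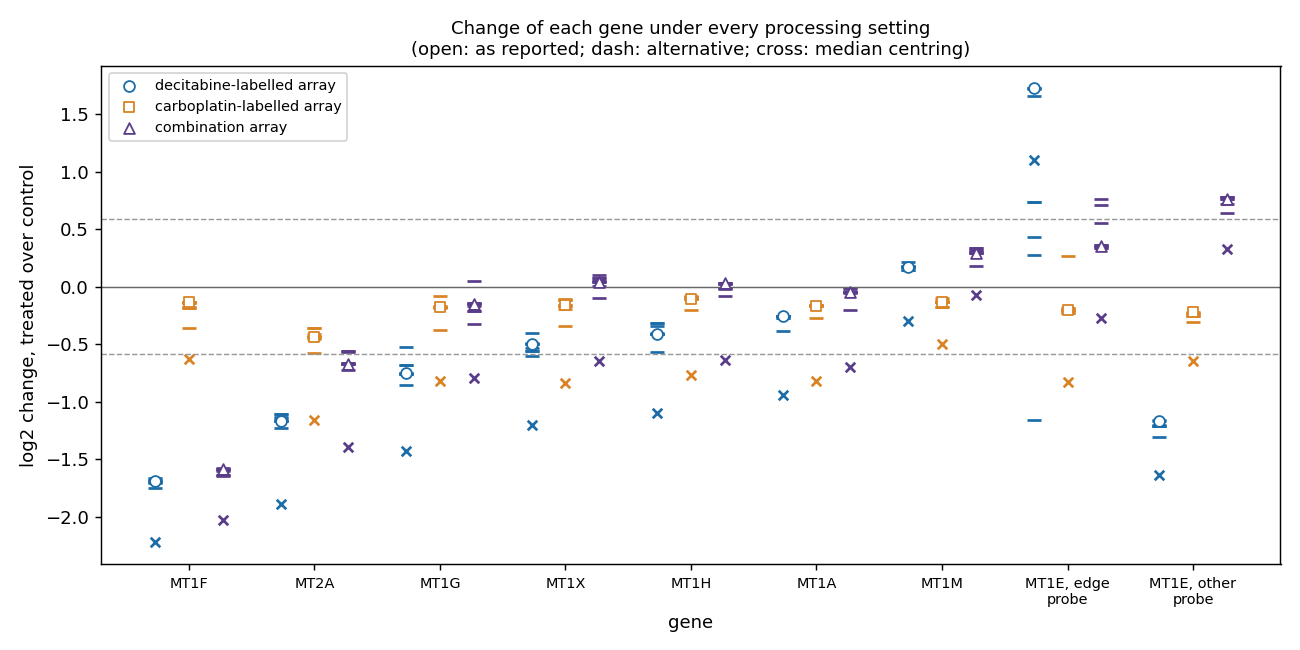
Log2 change (treated over control, y axis) of each gene (x axis) as reported (open symbols), under each alternative processing (dashes) and under median centring (crosses), 1 colour per array, with dashed lines at 1.5-fold. MT1F stays past 1.5-fold on the decitabine-labelled and combination arrays under every setting, and MT1E lies at 1.72 by its edge probe and at -1.16 once the edge columns are left out.

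The changes depend on the scale to which an array is set. With each array centred on its median in place of loess, all genes moved by a median of -0.40, -0.31 and -0.31 on the 3 arrays and the members by -0.68, -0.65 and -0.65. The median of all genes then stood at -0.14, -0.16 and -0.11, and the positive values of MT1M became -0.30 on the decitabine-labelled array and -0.07 on the combination array. Under this setting the brightest probes of MT1E, MT1H and MT1X fell below 0 on the combination array, at -0.27, -0.64 and -0.65. MT1F kept its order, with -2.22, -0.63 and -2.03 on the 3 arrays.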

How the data were processed

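YB5 RNA was measured on 3 dual-colour arrays, 1 per treatment, and groups were taken from the sample labels. The scanner files hold spot intensity as deposited, read by Agilent Feature Extraction 9.5.3.1 per the file headers, whereas the submitters' processing notes name version 8.5.1.1 and R 3.0.2. The deposited log10 ratio of red over green processed signals was inverted and put on the log2 scale. The authors' processed values are loess-normalized log2 ratios, 1 per probe and array. They correlated with the scanner values as treated over control (r of 0.867, 0.838 and 0.936 for decitabine, carboplatin and both drugs), from which their unstated direction was set, and their medians were -0.01, 0 and -0.01.

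Mean signals were corrected with limma 3.58.1 in R 4.3.3 by normexp (offset 50), normalized by loess within arrays, and single channels were scaled by Aquantile. The packages data.table (version 1.17.8) and jsonlite (version 2.0.0) read the files. Control spots and outlier spots (276, 111 and 89) were left out. Repeated spots were averaged, and a gene was represented by its brightest probe. Of 41000 probes, 28785 matched 18349 genes of RefSeq. Spots well above background made up 69.0, 70.3 and 68.2 % in the control channel and 65.8, 68.4 and 68.5 % in the treated channel. No test was run. The script was tested on simulated data. Named genes were all members and, of each related list, up to 4 genes with the largest change past 1.5-fold that were above background and outside columns 1 to 9. Other genes of these lists and NUP93 were named after their values were seen. Members and lists were chosen with earlier results of these data known. The processing was varied in 10 ways, and in 1 more chosen after seeing the data, with metallothionein spots given no weight in the loess fit.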

Additional observations from a re-analysis of the deposited data

Results flagged for a closer look

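The MT1E probe A_23_P420942 changed in opposite directions on 2 arrays, both past 1.5-fold, with -1.17 for the decitabine-labelled array and 0.76 for the combination array, a difference of 1.93 on the log2 scale. Under median centring the second value was 0.33, short of 1.5-fold. The control levels of this probe lay within 0.06 of each other, and the difference was not tested, since each treatment has 1 array.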

How the results depend on the processing

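With 1 array per treatment, no replicate could be left out. No paired analysis was possible because each treatment has 1 array. Of 264 values of single genes under the alternatives, 199 moved by less than the SD of repeated spots outside the edge columns of the same array, 64 moved further and 1 changed sign while past 1.5-fold, MT1E on the decitabine-labelled array, at -1.16 without the edge columns, where its other probe represents it. MT1F kept its direction and stayed past 1.5-fold in 10 of 10 alternatives on the decitabine-labelled and combination arrays, and MT2A in 10 and 7 of 10.

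Under median centring the members down numbered 6, 7 and 6 on the decitabine-labelled, carboplatin-labelled and combination arrays, and their medians were -1.15, -0.82 and -0.67, where 24.2 %, 19.2 % and 21.5 % of all genes were down. With the authors' deposited values 0 members were up and 4 down on the decitabine-labelled array and 1 was up on the combination array, and the medians on the 3 arrays were -0.58, -0.31 and -0.15, where 6.33 % of all genes were up and 6.22 % down on the decitabine-labelled array and 7.88 % up on the combination array. Without the edge columns 0 were up on the decitabine-labelled array, where the median was -0.62, and 1 on the combination array, where 5.12 % and 7.43 % of all genes were up. With the mean of all probes 0 were up and 2 down on the decitabine-labelled array, where the median was -0.37, and 1 was down on the combination array, where 10.2 % of all genes were up and 3.18 % down on the former and 4.35 % down on the latter. On the combination array 1 member was down with the processed signals, with the scanner's log ratio and at 2-fold, where 11.3 %, 11.3 % and 1.39 % of all genes were. The cause of these shifts was not tested. Signal over background limits no member probe to a bound, since all were well above it in both channels of all arrays.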
